A study of Mus musculus with 12 samples.

Results

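Arginine and tryptophan are amino acids whose breakdown changes in inflamed tissue, and 9 genes of these routes were followed here in the colorectum of mice with and without colitis-associated cancer. The genes were Slc7a2, Nos2, Ass1, Asl, Arg1, Arg2, Odc1, Ido1 and Kynu. They were taken by symbol from the table of raw counts, where each had a row of its own, so that 9 of 18514 listed genes are described. Each of the 9 passed the filter on low counts and was among the 15484 genes tested.

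RNA of colorectal tissue was sequenced from 12 male C57BL/6 mice, bought at 4 weeks of age, each giving 1 library, in 4 groups of 3. AOM/DSS treatment was given to Model and Model_Swim animals. It consisted of 1 injection of 10 mg/kg azoxymethane (AOM), which causes tumors of the colon, followed by 2% dextran sulfate sodium (DSS), which damages and inflames the colon, for 7 days in each of 3 cycles. Ctrl and Ctrl_Swim animals got no AOM and no DSS. Training was swimming of at most 90 min daily in Ctrl_Swim and Model_Swim animals, and the untrained animals were placed in shallow water. The question put to these data was which of the 9 genes differed with AOM/DSS, with swimming, and with both. The labels name no altered allele in any group, and the tissue was taken whole, so that fewer cells of a type and less RNA per cell cannot be told apart.

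Library totals lay between 17256953 and 19451055 counts. Levels are given in CPM, counts scaled to a common library size by the TMM method, in which the limit that a count of 0 allows, 3 counts, lay between 0.154 and 0.174 CPM. This limit covers counting error only. The tissue label held in every library, since the 12 marker genes of colon epithelium summed to between 8299 CPM in Model 1 and 23840 CPM in Ctrl 1. Model 1 and Model 3 stood apart by RNA of the exocrine pancreas, with 44140 and 21620 CPM over 12 acinar genes, against 93.2 to 208.5 CPM in the other 10 libraries. Traces of abundant acinar genes, in percent of the mean of Model 1 and Model 3, divided these 10. Ctrl 1, 2 and 3, Ctrl_Swim 3 and Model 2 were at 0.0788% to 0.148%. Ctrl_Swim 2, Ctrl_Swim 4 and all Model_Swim libraries were at 0.0030% to 0.0079%. In Model_Swim vs Model this division and swimming cannot be told apart. In 5 libraries (Ctrl_Swim 4, Model 1, Model 2, Model_Swim 2 and Model_Swim 3) the 16 genes of squamous epithelium, the lining of the anal canal and skin, summed to over 500 CPM, from 941.3 to 2119 CPM, against 10.3 to 179.8 CPM in the other 7.

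Arginine enters cells through cationic amino acid transporters, of which Slc7a2 encodes an inducible one. Inside the cell several enzymes compete for it. Inducible nitric oxide synthase, the product of Nos2, turns arginine into nitric oxide and citrulline, and argininosuccinate synthase (Ass1) and argininosuccinate lyase (Asl) rebuild arginine from citrulline. The arginases, cytosolic Arg1 and mitochondrial Arg2, split arginine into urea and ornithine, and ornithine decarboxylase (Odc1) makes putrescine from ornithine in the committed step of polyamine synthesis. Tryptophan is oxidized along the kynurenine route, in which indoleamine 2,3-dioxygenase (Ido1), an enzyme induced by interferon, takes the opening step and kynureninase (Kynu) a later one. Nos2 and Arg1 are widely used as marks of differently activated macrophages, but neutrophils and epithelia can express them too.

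On GRCm38.p6, in the RefSeq annotation, Slc7a2 lies at chr8:40862341-40922070 on the plus strand and Nos2 at chr11:78920787-78960226 on the plus strand. Ass1 lies at chr2:31470270-31520670 (plus) and Asl at chr5:130011258-130024381 (minus). Arg1 lies at chr10:24915207-24927470 (minus), Arg2 at chr12:79130788-79156301 (plus) and Odc1 at chr12:17544808-17551502 (plus). Ido1 lies at chr8:24584133-24596952 (minus) and Kynu at chr2:43555258-43683048 (plus). The counts are per gene over its exons, so no exon or isoform is told apart.

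The arginases are the members most easily taken for copies of each other, and the results below turn on their difference. Their coding sequences of 969 bases (Arg1) and 1062 bases (Arg2) in the GENCODE transcripts of GRCm38 shared 612 of 955 aligned bases (64.1%), and the longest run of bases found in both was 12. No window of 50 bases of the Arg1 transcript occurred in another gene's transcript, and none did for Nos2, Ido1, Asl or Slc7a2. For other members the counting was less certain, since 55.3% of the windows of 50 bases of Ass1 occurred in the gene model Gm5424 and 42.2% of those of Odc1 in 16 other genes. For Arg2 the share was 21.2%, with its overlapping neighbors Vti1b and Gm48780 on the opposite strand. For Kynu it was 0.86%, spread over 436 genes. How the counting treated reads that fit several places is not given in the sources used here.

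Promoters are shown for Odc1 and Ass1, the members with the highest levels per length in Ctrl. These are the 2 of 9 found in the RefSeq promoter table (GRCm38.p6, 250 bases before to 50 bases after the start). The start is the one of that table. For Odc1 it lies inside the gene, downstream of the first base given above (chr12:17544808). The windows were searched on both strands for the letters of motifs bound by factors that induce these genes. Matches are in capitals.
Odc1, chr12:17544623-17544922, plus strand: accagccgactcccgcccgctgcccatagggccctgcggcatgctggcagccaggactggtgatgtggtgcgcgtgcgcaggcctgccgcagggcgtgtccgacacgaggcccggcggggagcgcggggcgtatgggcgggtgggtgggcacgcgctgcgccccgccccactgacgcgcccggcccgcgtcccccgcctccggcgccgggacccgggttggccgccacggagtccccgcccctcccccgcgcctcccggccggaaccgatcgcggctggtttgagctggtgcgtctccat
Ass1, chr2:31470020-31470319, plus strand: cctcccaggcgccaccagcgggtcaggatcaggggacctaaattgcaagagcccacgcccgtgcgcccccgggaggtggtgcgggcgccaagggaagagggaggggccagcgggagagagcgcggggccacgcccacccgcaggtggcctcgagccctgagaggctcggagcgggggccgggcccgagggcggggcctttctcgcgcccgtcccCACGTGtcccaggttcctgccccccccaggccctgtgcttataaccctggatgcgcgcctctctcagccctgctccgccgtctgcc
The Ass1 window held 1 match, an E-box (CACGTG), the motif of Myc and its relatives, from base -36 to base -31 relative to the start. An E-box occurred in 7.2% of 32851 promoter windows of this length. Neither window held a match for the interferon motifs GAS (TTCNNNGAA, in 8.3% of all windows) and ISRE (GAAANNGAA, 8.6%), for NF-kB (GGGANTTCC, 1.7%), for C/EBP (TTGCNNAA, 10.8%) or for a TATA box (TATAAA, 13.6%). The GC content was 78.0% in the Odc1 window and 74.0% in the Ass1 window, against a median of 52.7% over all windows.

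Per length, in FPKM, the order of the 9 genes in Ctrl mice ran from Odc1 (92.2 ± 5.33 FPKM, SD, n = 3) through Ass1 (24.5 ± 2.38 FPKM), Asl (11.2 ± 1.09 FPKM), Arg2 (8.34 ± 3.61 FPKM), Arg1 (1.38 ± 0.389 FPKM), Nos2 (0.892 ± 0.154 FPKM), Ido1 (0.583 ± 0.175 FPKM) and Slc7a2 (0.517 ± 0.0833 FPKM) to Kynu (0.217 ± 0.0206 FPKM). The neighbors Asl and Arg2, and Ido1 and Slc7a2, overlapped between mice. In Model mice Odc1 was still the highest at 72.4 ± 11.4 FPKM and Ass1 followed at 27.7 ± 1.66 FPKM, but Arg1 (26.0 ± 24.8 FPKM) and Nos2 (14.0 ± 8.91 FPKM) had moved up to places 3 and 4. From Ass1 down to Ido1 (5.25 ± 2.99 FPKM), each of these neighbors overlapped with the next. In Ctrl_Swim mice the order was as in Ctrl down to Nos2, and in Model_Swim mice Arg1 (35.7 ± 27.8 FPKM) ranked next to Odc1 (80.7 ± 1.81 FPKM) and overlapped with Ass1 (27.7 ± 3.02 FPKM).

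**Figure D1:**
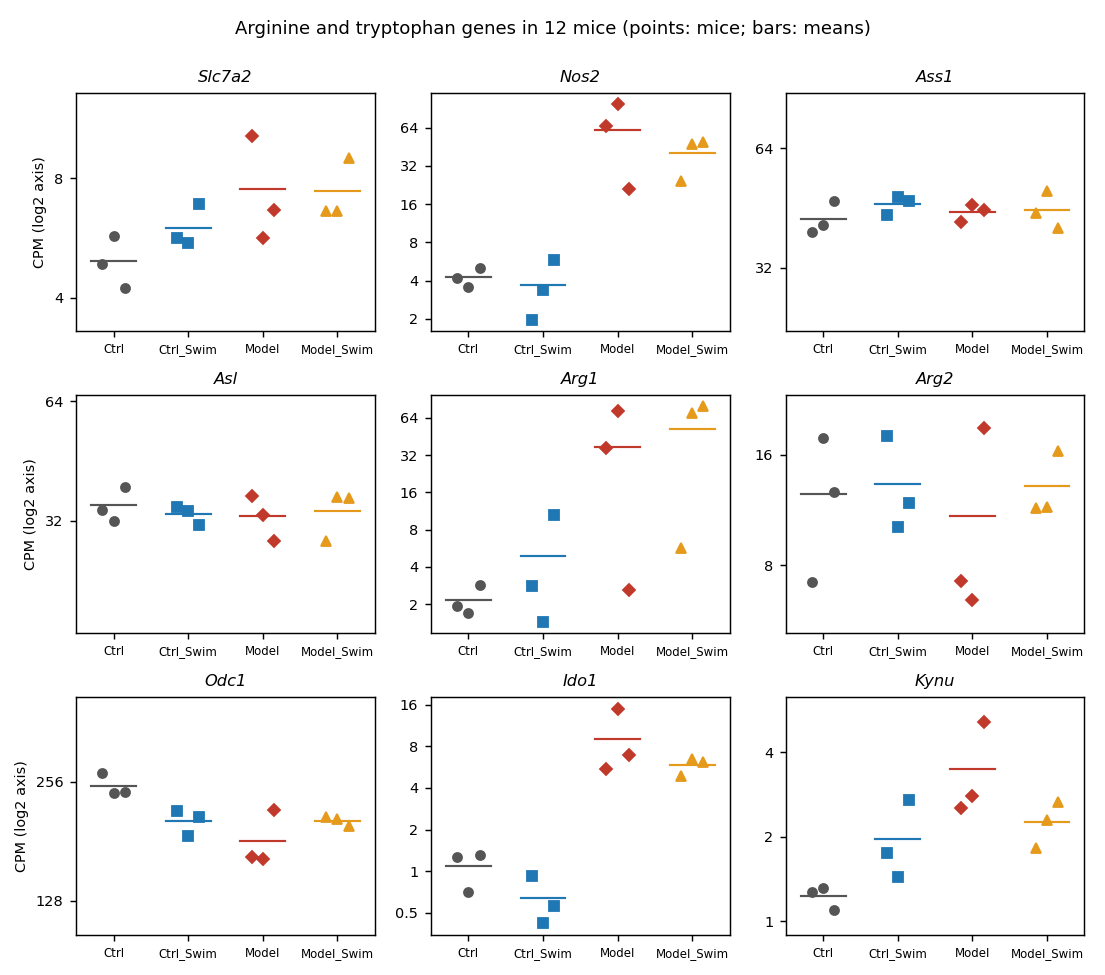
CPM on log2 axes for each of the 9 genes in the 12 mice, with 1 point per mouse and a bar at the mean of each group of 3 mice. Nos2 and Ido1 were higher in every Model and Model_Swim mouse than in any Ctrl or Ctrl_Swim mouse, Arg1 was spread from 2.58 to 73.2 CPM within the Model group, and Ass1 and Asl stayed within 39.3 to 49.9 CPM and 28.5 to 38.9 CPM.

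With AOM/DSS alone (Model vs Ctrl), 4 of the 9 genes rose (Nos2, Arg1, Ido1 and Kynu) and 1 fell (Odc1) at an adjusted p under 0.05 in edgeR's quasi-likelihood test, Benjamini-Hochberg over 15484 genes. Over all tested genes 16.5% rose and 16.2% fell in this comparison. The 4 that rose also passed the study's fold cutoff of 2, as did 6.21% of all tested genes upward. The median log2 fold change of the 9 was 0.61, beside 0.01 over all tested genes. In 4 of the 9 (Nos2, Ido1, Kynu and Odc1) the Model and Ctrl mice did not overlap, which held for 44.2% of all tested genes.

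With AOM/DSS in trained mice (Model_Swim vs Ctrl_Swim), 2 of the 9 rose, Nos2 and Ido1, both by more than 2-fold, and none fell. Over all tested genes 3.49% rose, 0.924% rose past the fold cutoff, and 1.69% fell. The groups did not overlap in these 2 genes and in 32.4% of all tested genes. Model_Swim and Ctrl_Swim mice shared no animal with Model and Ctrl mice, so each comparison stands on its own libraries, though the spread was estimated over all 12.

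Swimming alone moved no member past the threshold. In Model_Swim vs Model, 0 of the 9 passed in edgeR, DESeq2 or limma, 0 had an unadjusted p under 0.05 (13.6% of all tested genes did), and in 0 the groups did not overlap, against 0.071% of all tested genes called and 16.9% without overlap. In Ctrl_Swim vs Ctrl, 0 of the 9 passed in edgeR, DESeq2 or limma and 1 (Odc1) had an unadjusted p under 0.05, as did 17.6% of all tested genes, while 0.969% of all tested genes were called. The groups did not overlap in 2 of the 9, Odc1 and Kynu, and in 27.4% of all tested genes. The interaction, which tests whether the AOM/DSS difference was itself different in trained mice, passed in 0 of the 9 genes and in 0% of all tested genes in edgeR, in 0 of the 9 in DESeq2 and limma, and reached an unadjusted p under 0.05 for 2 members (Odc1 and Kynu), as it did for 19% of all tested genes.

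**Figure D2:**
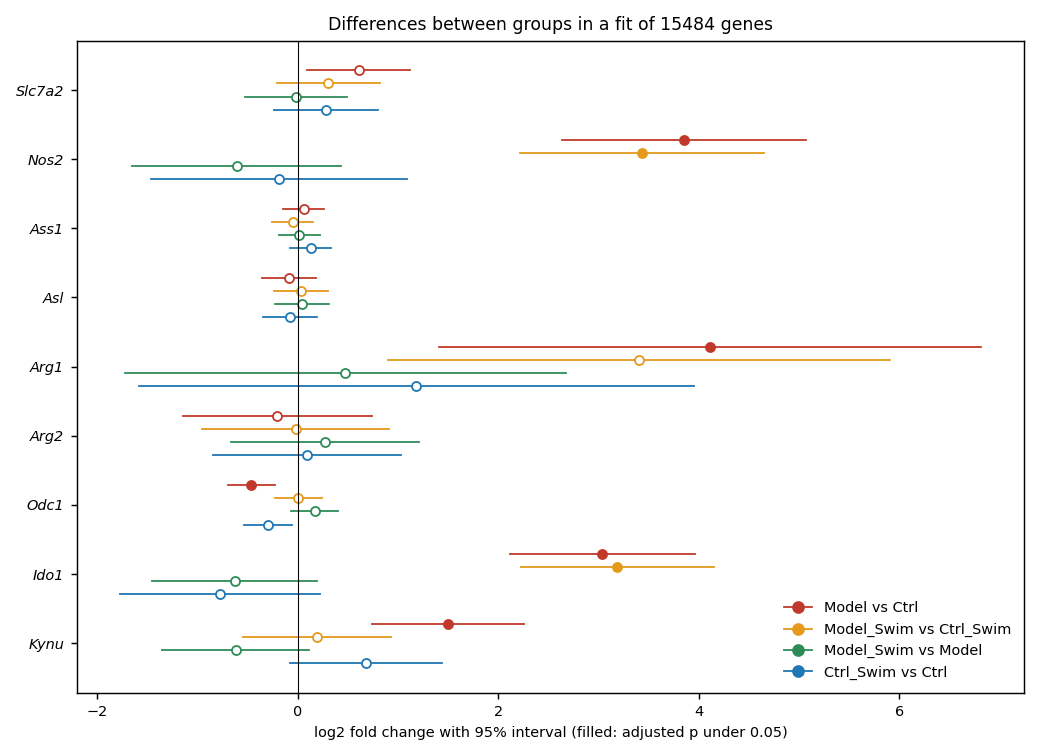
Log2 fold changes with 95% intervals for the 9 genes in 4 comparisons, from the fit of all 12 libraries, with filled points where the adjusted p was under 0.05. The intervals of Nos2 and Ido1 lie above 0 in Model vs Ctrl (red) and in Model_Swim vs Ctrl_Swim (orange), those of Arg1 are the widest, and no point of Model_Swim vs Model (green) or Ctrl_Swim vs Ctrl (blue) is filled.

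Slc7a2, the arginine transporter, was at 4.86, 5.72 and 4.23 CPM in Ctrl mice and at 10.2, 5.67 and 6.66 CPM in Model mice. Model 2 lay within the Ctrl range, and Model 1, a library with RNA of the pancreas, was the highest of all 12 mice. The log2 fold change was 0.61 (SE 0.23) with an adjusted p of 0.0673 in edgeR, short of the threshold. Without Model 2 it was 0.80 and the adjusted p 0.038 in edgeR, but in 24 of 25 alternatives the gene stayed short of the threshold. Over the 25 the log2 fold change ran from 0.18 to 0.80. Trained mice were at 5.64, 5.48 and 6.90 CPM in Ctrl_Swim and at 6.61, 6.64 and 9.01 CPM in Model_Swim, a log2 difference of 0.30 (95% interval -0.21 to 0.82).

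Nos2, inducible nitric oxide synthase, was at 4.20, 3.54 and 5.06 CPM in Ctrl mice and at 1.97, 3.35 and 5.83 CPM in Ctrl_Swim mice. In Model mice it was at 65.9, 97.7 and 21.1 CPM, and in Model_Swim mice at 24.2, 47.3 and 49.7 CPM. The lowest mouse with AOM/DSS, Model 3, was above the highest mouse without it, Ctrl_Swim 4. Nos2 rose by a log2 fold change of 3.85 (SE 0.56, adjusted p = 0.00101, edgeR) in Model vs Ctrl, 14.4-fold, and by 3.43 (SE 0.55, adjusted p = 0.00938, edgeR) in Model_Swim vs Ctrl_Swim, 10.8-fold. Between Model_Swim and Model the difference was -0.61 (95% interval -1.65 to 0.43) with an adjusted p of 0.614 in edgeR. The interaction was -0.42 (SE 0.75, adjusted p = 0.802, edgeR).

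Nos2 also changed its place among the nitric oxide synthases. Its FPKM made up 17.8%, 17.0% and 21.2% of the sum of Nos1, Nos2 and Nos3 in Ctrl mice, and 8.26%, 9.01% and 18.5% in Ctrl_Swim mice. In Model mice the share was 83.5%, 77.4% and 47.3%, and in Model_Swim mice 51.2%, 65.5% and 68.6%, without overlap between mice with and without AOM/DSS. The neuronal synthase Nos1 had 28.5 ± 2.12 CPM in Ctrl mice (SD, n = 3) and 27.5 ± 13.2 CPM with AOM/DSS alone, and the endothelial synthase Nos3 at 6.30 ± 1.80 CPM and 9.67 ± 3.44 CPM. Neither passed the test in Model vs Ctrl (adjusted p = 0.903 and 0.124, edgeR).

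Ass1 and Asl, which regenerate arginine, were the steadiest members. Over the 12 mice Ass1 ran from 39.3 to 49.9 CPM, the highest 1.27 times the lowest, and Asl from 28.5 to 38.9 CPM, 1.37 times. In Model vs Ctrl the log2 difference was 0.06 for Ass1 (95% interval -0.14 to 0.26) and -0.09 for Asl (95% interval -0.36 to 0.18). In Model_Swim vs Ctrl_Swim it was -0.05 for Ass1 (95% interval -0.26 to 0.15) and 0.03 for Asl (95% interval -0.24 to 0.30). Neither gene passed in any of the 5 comparisons, and the intervals reach no further than 0.36 either way in these 2 comparisons.

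Arg1, the cytosolic arginase, was at 1.93, 1.69 and 2.86 CPM in Ctrl mice and at 2.79, 1.44 and 10.4 CPM in Ctrl_Swim mice. In Model mice it was at 36.4, 73.2 and 2.58 CPM, and in Model_Swim mice at 5.67, 70.3 and 80.1 CPM. Model 3 lay within the Ctrl range, so the groups overlapped. Arg1 rose by a log2 fold change of 4.11 (SE 1.23, adjusted p = 0.0264, edgeR) in Model vs Ctrl. In Model_Swim vs Ctrl_Swim the difference of 3.40 (SE 1.14) had an adjusted p of 0.107 in edgeR and 0.0344 in DESeq2. Between Model_Swim and Model it was 0.48 (95% interval -1.72 to 2.67), the widest interval of the 9 genes in that comparison.

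The Arg1 level moved with the squamous genes. The 5 libraries with a squamous sum over 500 CPM were the 5 highest in Arg1, from 10.4 to 80.1 CPM, and the other 7 were at 1.44 to 5.67 CPM. In Model mice the squamous sums were 1113, 2119 and 34.4 CPM beside Arg1 levels of 36.4, 73.2 and 2.58 CPM, and in Model_Swim mice 179.8, 1193 and 1124 CPM beside 5.67, 70.3 and 80.1 CPM. The keratin Krt5, a basal squamous marker, ran from 0.638 to 462.2 CPM over the 12 libraries. Without these 5 libraries the Arg1 difference in Model vs Ctrl was 0.25 with an adjusted p of 0.733 in edgeR, and with the mean squamous level as a covariate it was 0.31 with an adjusted p of 0.847. Both alternatives also differ in precision, the former leaving 1 Model mouse and 1 Model_Swim mouse whose spread is taken from the other groups. The adjusted p was 0.0826, 0.0898 and 0.0729 without Ctrl 1, Ctrl 2 or Ctrl 3 and 0.0858 without Model 2 in edgeR, and from 0.0753 to 0.117 in limma on FPKM. The neutrophil genes, 12 in number, summed to 328.9, 425.0 and 25.8 CPM in Model 1, 2 and 3 and to 56.0, 631.2 and 423.3 CPM in Model_Swim 1, 2 and 3, against 14.2 to 28.1 CPM in mice without AOM/DSS. Their part in the Arg1 result was not tested.

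**Figure D3:**
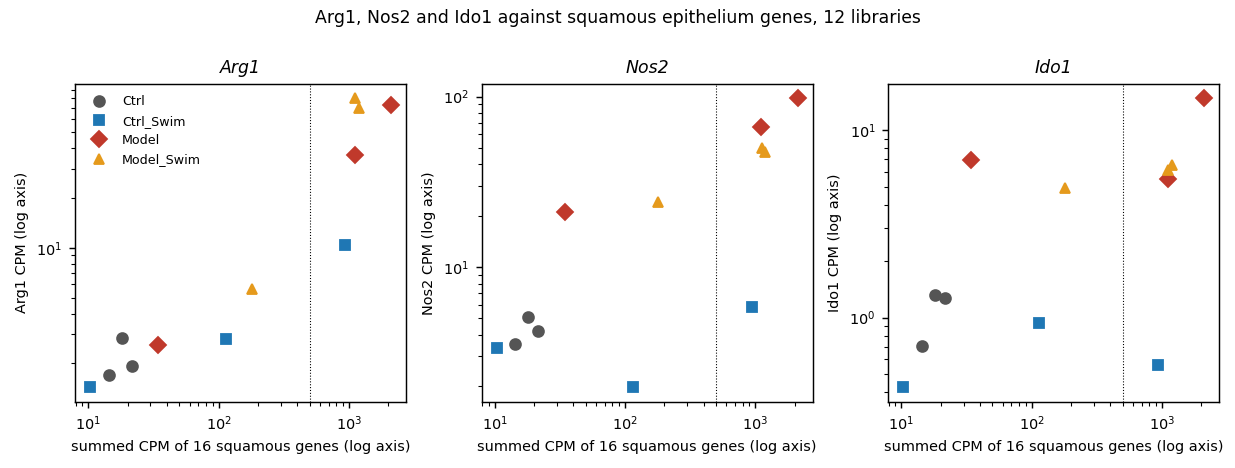
CPM of Arg1, Nos2 and Ido1 against the summed CPM of 16 squamous genes, on log axes, with 1 point per library and a dotted line at 500 CPM. The 5 libraries to the right of the line hold the 5 highest Arg1 levels, while Nos2 and Ido1 in Ctrl_Swim 4, also to the right, are at 5.83 and 0.562 CPM and those of Model 3, far to the left, at 21.1 and 6.95 CPM.

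Nos2 moved with the squamous genes within the AOM/DSS groups. Its 4 highest libraries were all over 500 CPM of squamous genes, and the mouse with the lowest squamous sum was the lowest in Nos2 in the Model group (21.1 CPM in Model 3) and in the Model_Swim group (24.2 CPM in Model_Swim 1). Ido1 was lowest in Model_Swim 1 as well (4.90 CPM), but in the Model group its lowest mouse was Model 1 (5.47 CPM), with a squamous sum of 1113 CPM. Between mice with and without AOM/DSS the order was different. Model 3, with 34.4 CPM of squamous genes, had 21.1 CPM of Nos2 and 6.95 CPM of Ido1, above every mouse without AOM/DSS, and Ctrl_Swim 4, with 941.3 CPM of squamous genes, had 0.562 CPM of Ido1, though its 5.83 CPM of Nos2 was the highest of the 6 mice without AOM/DSS. With the squamous covariate and all 12 libraries, the difference in Model vs Ctrl was 2.49 for Nos2 (adjusted p = 0.00505, edgeR) and 2.55 for Ido1 (adjusted p = 0.0076, edgeR). Without the 5 libraries, an alternative chosen after seeing the data that leaves Model 3 as the lone Model mouse, it was 2.30 for Nos2 (adjusted p = 0.00135, edgeR) and 2.64 for Ido1 (adjusted p = 0.00634, edgeR), with the spread taken from the other groups. The part of squamous tissue in the level of Nos2 was not tested further.

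Arg2, the mitochondrial arginase, was at 7.18, 17.7 and 12.6 CPM in Ctrl mice, 18.0, 10.2 and 11.8 CPM in Ctrl_Swim mice, 7.24, 6.43 and 18.9 CPM in Model mice and 11.5, 11.5 and 16.4 CPM in Model_Swim mice. All 4 groups overlapped. The log2 difference was -0.21 (95% interval -1.15 to 0.74) in Model vs Ctrl and -0.02 (95% interval -0.96 to 0.91) in Model_Swim vs Ctrl_Swim, so that changes within about 2-fold in either direction were not detectable with 3 mice a group. Arg1 made up 20.5%, 8.38% and 17.8% of the arginase FPKM in Ctrl mice and 13.0%, 11.9% and 45.9% in Ctrl_Swim mice. In Model 1 and Model 2 its share was 82.8% and 91.6% and in Model_Swim 2 and Model_Swim 3 85.4% and 82.4%, while Model 3 (11.6%) and Model_Swim 1 (32.2%) lay within the range of mice without AOM/DSS. Summed over both genes, arginase FPKM ran from 5.94 in Ctrl 1 to 66.8 in Model_Swim 3.

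**Figure D4:**
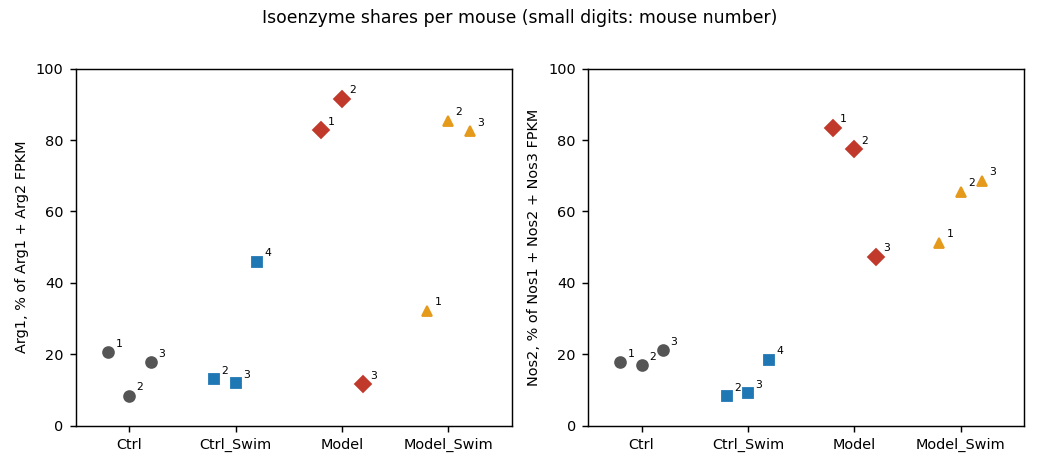
Share of Arg1 in the arginase FPKM (left) and of Nos2 in the FPKM of the 3 nitric oxide synthases (right), in percent, with 1 point per mouse and its number beside it. The Nos2 share was at least 47.3% in every mouse with AOM/DSS and at most 21.2% in every other mouse, whereas the Arg1 share of Model 3 (11.6%) and Model_Swim 1 (32.2%) lay among those of mice without AOM/DSS.

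Odc1, at the entry to polyamine synthesis, was the member that fell. It was at 269.5, 239.7 and 240.9 CPM in Ctrl mice and at 165, 163 and 216.4 CPM in Model mice, without overlap. The log2 fold change was -0.46 (SE 0.11, adjusted p = 0.00868, edgeR), which is 0.726 of the Ctrl level and does not reach the study's lower fold cutoff of 0.5. Ctrl_Swim mice were at 216.2, 186.1 and 208.3 CPM, also below every Ctrl mouse, with a log2 difference of -0.30 (SE 0.11), an unadjusted p of 0.0179 and an adjusted p of 0.203 in edgeR. Model_Swim mice were at 207.8, 206.3 and 197.7 CPM, 0.00 (95% interval -0.23 to 0.24) from Ctrl_Swim. The interaction was 0.47 (SE 0.15) with an adjusted p of 0.152 in edgeR. Without Model 3 it was 0.60 with an adjusted p of 0.0163 in edgeR, and Model_Swim was then above Model by 0.32 with an adjusted p of 0.0442. Colon epithelium genes summed to 8299, 13370 and 22420 CPM in Model 1, 2 and 3. Model 3 was also the highest in Odc1, but Model 1 and Model 2 were alike in it. Of the summed genes, Vil1 (595, 632.8 and 696 CPM) and Cdx2 (131.4, 151.8 and 227 CPM) rose in this order. Epcam (1473, 1282 and 1293 CPM) did not. In Model vs Ctrl 6 of the 12 fell and 0 rose, beside 16.2% and 16.5% of all tested genes. In Model vs Ctrl the adjusted p of Odc1 was 0.0689 (-0.37) with the squamous covariate and 0.19 (-0.22) without the 5 libraries over 500 CPM, which leaves Model 3 alone in its group, both in edgeR. The part of the tissue's makeup in this difference was not tested.

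Ido1, at the entry to the kynurenine route, was at 1.27, 0.709 and 1.32 CPM in Ctrl mice and at 0.931, 0.426 and 0.562 CPM in Ctrl_Swim mice, which rests on 8 to 24 counts per library. In Model mice it was at 5.47, 14.8 and 6.95 CPM and in Model_Swim mice at 4.90, 6.53 and 6.15 CPM, each above every mouse without AOM/DSS. Ido1 rose by a log2 fold change of 3.04 (SE 0.42, adjusted p = 0.000853, edgeR) in Model vs Ctrl, 8.22-fold, and by 3.19 (SE 0.44, adjusted p = 0.00468, edgeR) in Model_Swim vs Ctrl_Swim, 9.10-fold. Between Model_Swim and Model the difference was -0.63 (95% interval -1.46 to 0.19, adjusted p = 0.497, edgeR), with Model 2 the highest mouse and the other 5 between 4.90 and 6.95 CPM.

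Kynu, kynureninase, was at 1.27, 1.31 and 1.10 CPM in Ctrl mice and at 2.52, 2.78 and 5.11 CPM in Model mice, without overlap. It rose by a log2 fold change of 1.49 (SE 0.34, adjusted p = 0.00845, edgeR), 2.82-fold. Ctrl_Swim mice, at 1.75, 1.44 and 2.71 CPM, were also above every Ctrl mouse, with a log2 difference of 0.68 (SE 0.35, adjusted p = 0.33, edgeR). Model_Swim mice were at 1.82, 2.28 and 2.65 CPM, 0.19 from Ctrl_Swim (95% interval -0.55 to 0.93). The interaction of -1.30 (SE 0.48) had an unadjusted p of 0.0199 and an adjusted p of 0.184 in edgeR. Kynu was highest in Model 3, a library with RNA of the pancreas, and in Model vs Ctrl its adjusted p was 0.055 (1.16) without Model 1 and Model 3 and 0.0653 (1.39) with the acinar genes as a covariate, both in edgeR. The former fit holds 1 Model mouse, Model 2, whose spread is taken from the other groups. The levels of Kynu rest on 20 to 89 counts per library.

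For each member the 3 genes with the most alike pattern were taken, by Pearson's r of log2 CPM over the 12 libraries, among 13995 genes. These correlations are descriptions, since all genes share the libraries and their group differences. For Nos2 they were Stom, a membrane protein gene (r = 0.982), the cytokine gene Il1b (0.982) and Il1r2, the decoy receptor of interleukin-1 (0.977). For Arg1 they were Adam28, a metalloprotease gene (0.991), the platelet chemokine gene Ppbp (0.986) and Prss27, a serine protease gene of stratified epithelium (0.986). For Ido1 they were Rnf24 (0.985), the cholesterol transporter gene Npc1 (0.968) and Trim40 (0.963), and for Kynu Rasgrp1 (0.967), Crlf3 (0.964) and Pik3cd (0.953), of which Rasgrp1 and Pik3cd encode signaling proteins of lymphocytes. Odc1 was most like Tm9sf2 (0.962), Mul1 (0.953) and Stard3nl (0.953), and Slc7a2 most like Mdk (0.946), Krba1 (0.918) and Vasn (0.91). For the other members the highest correlations were lower, with Kat6b (0.888), Btrc (0.876) and Cnksr3 (0.864) for Arg2, Pkp3 (0.901), Atox1 (0.845) and Wdr53 (0.839) for Asl, and Zcchc7 (0.817), Tceal3 (0.803) and Kcnip4 (0.795) for Ass1.

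The other genes of the arginine and nitric oxide route moved in both directions with AOM/DSS. Of 28 listed genes 27 were tested, and in Model vs Ctrl 4 rose and 9 fell, beside 16.5% and 16.2% of all tested genes. Their median log2 fold change was -0.02, beside 0.01 over all tested genes. Cps1, carbamoyl phosphate synthetase of the urea cycle, was at 45.3, 58.9 and 74.2 CPM in Ctrl mice and at 8.20, 7.90 and 1.21 CPM in Model mice, a fall of 3.36 on the log2 scale (adjusted p = 0.0017, edgeR). Otc, ornithine transcarbamylase, which makes citrulline from ornithine, fell by 1.29 on the log2 scale (adjusted p = 0.00687, edgeR), from a mean of 35.6 to 14.6 CPM. Both genes work mainly in liver and small intestine. Small intestine markers, 10 genes, moved the same way, at 298.1 to 615.4 CPM in Ctrl mice and 149.6 to 204.4 CPM in Model mice, and their part in the falls of Cps1 and Otc was not tested. Ddah2, which breaks down inhibitors of nitric oxide synthase, rose by 0.90 (adjusted p = 0.0285, edgeR). Its levels were 19.3, 10.2 and 8.21 CPM in Model mice, with the highest in Model 1, a library with pancreatic RNA. Its relative Ddah1 went the other way, from a mean of 121.3 to 91.0 CPM. That was a fall of 0.42 on the log2 scale (adjusted p = 0.0148, edgeR). Gamt, of creatine synthesis, rose by 1.59 (adjusted p = 0.0269, edgeR), but its high mice were Model 1 (12.4 CPM) and Model 3 (6.43 CPM), the libraries with pancreatic RNA, with 2.18 CPM in Model 2 and 2.13 to 2.71 CPM in Ctrl mice, and without these libraries, with Model 2 as the lone Model mouse, the difference was -0.11.

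Of the 14 polyamine genes 2 rose and 7 fell in Model vs Ctrl, beside 16.5% and 16.2% of all tested genes. The median log2 fold change of the 14 was -0.25, beside 0.01 over all tested genes. Srm, spermidine synthase, fell by 0.60 on the log2 scale (adjusted p = 0.0108, edgeR), Azin1, a protein that shields ornithine decarboxylase from degradation, by 0.50 (adjusted p = 0.00188, edgeR), and Paox, polyamine oxidase, by 0.49 (adjusted p = 0.018, edgeR). Smox, spermine oxidase, moved the other way. Ctrl mice had 30.6, 24.9 and 30.1 CPM of it and Model mice 69.1, 51.9 and 46.4 CPM, and it was at 20.8, 22.3 and 21.1 CPM in Ctrl_Swim and 44.4, 43.8 and 41.6 CPM in Model_Swim mice. Smox rose by 0.97 (adjusted p = 0.000798, edgeR) in Model vs Ctrl and by 1.02 (adjusted p = 0.00444, edgeR) in Model_Swim vs Ctrl_Swim, without overlap in either.

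Of 23 listed tryptophan genes 19 were tested, and 2 rose and 4 fell in Model vs Ctrl, with a median of -0.05. Over all tested genes 16.5% rose and 16.2% fell, with a median of 0.01. Maoa, monoamine oxidase A, which degrades serotonin, was at 1116, 1103 and 1112 CPM in Ctrl mice and at 411, 572.8 and 732.5 CPM in Model mice, a fall of 0.96 on the log2 scale (adjusted p = 0.00291, edgeR). In Model_Swim mice it was at 959.2, 1002 and 912.6 CPM, and -0.12 (95% interval -0.50 to 0.26) from Ctrl_Swim. Its difference in Model_Swim vs Model was 0.74 (SE 0.17) with an adjusted p of 0.137 in edgeR, short of the threshold. The colon epithelium sums of Model 1, 2 and 3, at 8299, 13370 and 22420 CPM, had the order of their Maoa levels. Of the summed genes, Vil1 and Cdx2 had this order too and Epcam did not. The part of colon epithelium in the fall was not tested. Slc6a19, a transporter of neutral amino acids including tryptophan, fell by 1.96 on the log2 scale (adjusted p = 0.0162, edgeR) although the groups overlapped. This fall no longer passed in 7 of 25 alternatives. Ctrl 1, 2 and 3, at 3.92, 8.83 and 20.6 CPM of Slc6a19, had the order of their small intestine sums (298.1, 462.2 and 615.4 CPM). Model mice did not, and the part of such tissue was not tested. Kyat3, a kynurenine aminotransferase, fell by 0.49 (adjusted p = 0.0454, edgeR), a call that held in 3 of 25 alternatives. Slc7a8, another amino acid transporter, rose by 0.90 (adjusted p = 0.00853, edgeR). It was at 16.7, 15.5 and 17.9 CPM in Ctrl mice and at 44.2, 23.4 and 25.7 CPM in Model mice. The highest was Model 1, a library with pancreatic RNA. Ido2, Aadat, Acmsd and Il4i1 had at most 9 counts in any library and were not tested.

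Among 19 cytokines and factors known to induce or repress these enzymes, 14 were tested. In Model vs Ctrl 6 rose and none fell in edgeR, beside 16.5% and 16.2% of all tested genes. The median of the 14 was 0.34. Ctrl mice had 1.38, 0.818 and 0.935 CPM of Il1b and Model mice 22.4, 24.7 and 6.37 CPM, a rise of 4.09 (adjusted p = 0.000737, edgeR), and it rose by 3.69 (adjusted p = 0.00609, edgeR) in Model_Swim vs Ctrl_Swim. Tnf rose by 3.32 (adjusted p = 0.00101, edgeR) and by 2.18 (adjusted p = 0.025, edgeR) in these comparisons, Stat3 by 0.36 (adjusted p = 0.0114, edgeR) and 0.43 (adjusted p = 0.0255, edgeR). Cebpb, a factor of myeloid cells, rose by 0.59 (adjusted p = 0.0145, edgeR) in Model vs Ctrl. Ifng, Il6, Il22, Il4 and Il10 had at most 12 counts in any library and were not tested, so that Ifng, the interferon known to induce Ido1, gives no comparison at this depth.

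**Figure D5:**
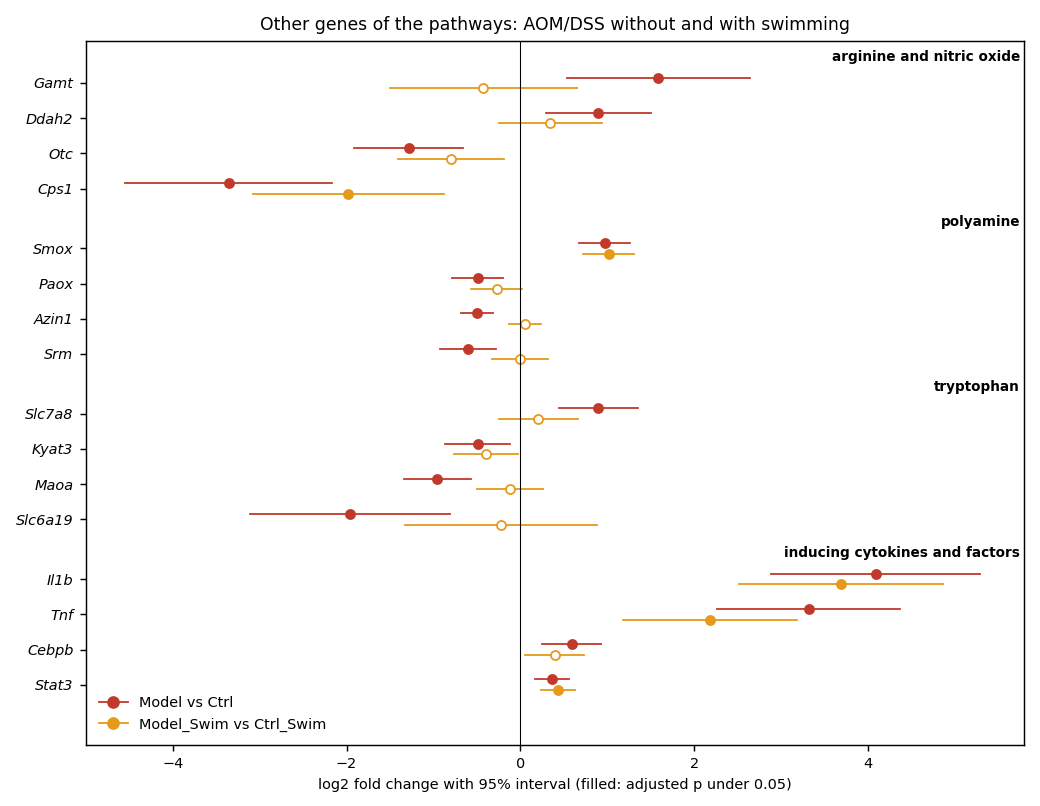
Log2 fold changes with 95% intervals of 16 other genes of the pathways, up to 4 of each list with the largest change in Model vs Ctrl, in Model vs Ctrl (red) and Model_Swim vs Ctrl_Swim (orange), with filled points at an adjusted p under 0.05. Smox, Il1b, Tnf, Stat3 and Cps1 are filled in both comparisons. The points of Srm, Azin1 and Maoa are at -0.60, -0.50 and -0.96 in red and at 0.00, 0.06 and -0.12 in orange. The genes were chosen by their red values. Mean levels in Ctrl, Ctrl_Swim, Model and Model_Swim mice were 35.7, 25.1, 23.5 and 25.0 CPM for Srm. They were 253.5, 208.1, 178.6 and 216.2 CPM for Azin1 and 1110, 1044, 572.1 and 957.9 CPM for Maoa. In Ctrl_Swim vs Ctrl, Srm was at -0.51 and Azin1 at -0.28, neither past the threshold.

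Over the 4 lists together, 74 genes were tested, of which 14 rose and 20 fell in Model vs Ctrl and 6 rose and 2 fell in Model_Swim vs Ctrl_Swim. Over all tested genes 16.5% rose and 16.2% fell in the former comparison, and 3.49% rose and 1.69% fell in the latter. The median log2 fold change of the 74 was -0.02 and -0.01, beside 0.01 and -0.01 over all tested genes. In Model_Swim vs Model 0 of the 74 passed in edgeR, 12 (16.2%) had an unadjusted p under 0.05, beside 13.6% of all tested genes, and DESeq2 called 4. In Ctrl_Swim vs Ctrl 0 passed in edgeR, 13 (17.6%) had an unadjusted p under 0.05, beside 17.6% of all tested genes, and DESeq2 called 6. The interaction passed in 0 of the 74 in edgeR. Of the 74, 18 (24.3%) had an unadjusted p under 0.05, beside 19% of all tested genes, and DESeq2 called 5. The shares of all genes that DESeq2 called are not given here, so its counts stand without that background.

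Many, but not all, marker genes of macrophages, neutrophils and T and NK cells also rose in Model vs Ctrl. The 12 macrophage genes summed to 332 to 352.3 CPM in Ctrl, 310.3 to 351.2 CPM in Ctrl_Swim, 486.1 to 567.8 CPM in Model and 466.3 to 542.1 CPM in Model_Swim mice. In Model vs Ctrl 9 of the 12 rose and 1 fell, and in Model_Swim vs Ctrl_Swim 6 rose. Of all tested genes, 16.5% rose and 16.2% fell in the former comparison, and 3.49% rose in the latter. Of 12 neutrophil genes 11 were tested, of which 9 rose in Model vs Ctrl and 3 in Model_Swim vs Ctrl_Swim, and of 10 tested genes of T and NK cells 5 rose in Model vs Ctrl. Whether Nos2, Ido1 and Kynu rose within cells or with the number of such cells cannot be told apart here.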

How the data were processed

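Per the labels and the study's methods, the kit for the libraries was TruSeq Stranded mRNA, and RNA was extracted with TRIzol (methods) or a mirVana kit (labels). After trimming with Trimmomatic and alignment by HISAT2 (GRCm38.p6), the authors deposited raw counts per gene from HTSeq-count, whole numbers without normalization. They also deposited FPKM values from Cufflinks, counts scaled to transcript length and library size. Versions are not given in the sources used here.

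The counts of all 12 libraries were fitted in edgeR 4.0.16 (R 4.3.3) with TMM scaling and filterByExpr (minimum count 10), by a quasi-likelihood fit of the 4 groups. P-values were adjusted by Benjamini-Hochberg over 15484 of 18514 genes, and a gene passed at an adjusted p under 0.05. Standard errors are the log2 fold change divided by the square root of F, and 95% intervals use the degrees of freedom of the fit. Log2 CPM uses a prior count of 2. Over 3 against 3 mice an exact permutation test cannot go below p = 0.1, so none was used. The labels do not say whether mice of a group shared cages or litters. The code was tested on simulated data.

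The members, the lists of other pathway genes and of markers, and the tests were chosen with earlier results of these data known. The text names every member and, for each member, the 3 most alike genes. Of each pathway list it names up to 4 genes that passed in Model vs Ctrl. These had the largest change and a mean of at least 1 CPM. Nos1, Nos3 and Ddah1 are named besides, for comparison with Nos2 and Ddah2. Alternatives were DESeq2 size factors, DESeq2 1.42.0, no filter, a fit of the compared groups alone, a block for replicate number, the fold cutoff, covariates for acinar and squamous genes, a term for traces of pancreatic RNA, limma 3.58.1 on FPKM, leaving out each mouse, and leaving out Model 1 and Model 3. Leaving out the 5 libraries with over 500 CPM of squamous genes was added after seeing the data. Limma was run with a filter at a mean of 0.5 FPKM and, on log2(FPKM + 1), also without it.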

Additional observations from a re-analysis of the deposited data

How the results depend on the processing

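In Model vs Ctrl, 5 of the 9 genes passed in the fit described. The number was 3 with the squamous covariate, 3 in limma on log2(FPKM + 1) and 3 in limma on log2(FPKM + 0.1). These limma fits left out genes under a mean of 0.5 FPKM, so Kynu was not tested in them. When each mouse was left out in turn, 4 to 5 passed. Leaving out 1 mouse gave 2 to 3 in Model_Swim vs Ctrl_Swim (2 with all mice), and 0 to 1 in Model_Swim vs Model and in the interaction (0 with all mice), the 1 being Odc1 without Model 3. Without Model 1 and Model 3 the interaction passed in 1 gene and Ctrl_Swim vs Ctrl in 1 gene, both times Odc1. That fit holds 1 Model mouse, Model 2, assumed to vary like the mice of the other groups, so the interaction in it rests on an arm of 1. Nos2, Ido1, Il1b and Smox kept their rise in Model vs Ctrl past the threshold in 25 of 25 alternatives each, with log2 values of 2.30 to 4.50 for Nos2, 1.89 to 3.81 for Ido1, 2.37 to 4.54 for Il1b and 0.69 to 1.10 for Smox. Arg1 kept it in 16 of 25 and ran from 0.25 to 5.19.

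Of the 74 other pathway genes, 34 passed in Model vs Ctrl, against 7 with the fold cutoff, 21 with only the groups compared, 19 with the acinar covariate, 15 with the squamous covariate, 19 without the 5 squamous libraries, and 20 to 36 when each mouse was left out. In Model_Swim vs Ctrl_Swim 8 passed, against 4 with the fold cutoff, 13 in DESeq2, 15 with only the groups compared, 3 with the pancreatic trace term, 17 without Model 1 and Model 3, 5 without the 5 squamous libraries, and 2 to 12 when each mouse was left out. From 0 in each, Model_Swim vs Model went to 4 in DESeq2, 4 without Model 1 and Model 3, 1 without the squamous libraries and 0 to 10 when each mouse was left out. Ctrl_Swim vs Ctrl went to 6 in DESeq2, 2 with only the groups compared, 9 without Model 1 and Model 3, 1 without the squamous libraries and 0 to 2 when each mouse was left out. The interaction went to 5 in DESeq2, 10 without Model 1 and Model 3, 1 without the squamous libraries and 0 to 7 when each mouse was left out. The cause of these shifts was not tested. The shares of all genes that passed in each alternative are not given here, so these counts stand without that background.

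Over the members and named pathway genes, 1054 alternative values kept their direction and their side of the threshold, 119 no longer passed, 12 passed newly and 5 turned. Those no longer past the threshold include Ddah2 in 10 of 25 alternatives in Model vs Ctrl, and Cps1 in 13, Stat3 in 11 and Tnf in 9 of 25 in Model_Swim vs Ctrl_Swim. The 5 that turned follow. Model_Swim vs Model was 0.20 for Nos2 without the squamous libraries, and for Odc1 -0.02 with the pancreatic trace term and -0.057 without the squamous libraries. Gamt in Model vs Ctrl was -0.09 with the acinar covariate and -0.11 without Model 1 and Model 3. Of the 45 member values, 24 were smaller than 1 SE and are given no direction here.

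Whether replicate numbers pair the mice is not known. The deviations of same-numbered libraries correlated over 0.1 in 8 of 15 pairs, from -0.24 to 0.61. Pairs of unlike numbers were not compared, so these values cannot decide it. With the replicate block, 0 of the 9 genes passed in Model_Swim vs Ctrl_Swim (Nos2 3.96, adjusted p = 0.0591, and Ido1 3.27, adjusted p = 0.0518, edgeR) and 0 of the other pathway genes, and the members' counts in the other comparisons stayed within 1.5 times.

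Depth limits Ido1 and Kynu, which rest on 8 to 24 and 20 to 53 counts per library in mice without AOM/DSS, and leaves Ifng, Il6, Il10 and Il22 unmeasured. The SE of Arg1 in Model vs Ctrl was 1.23, the largest of the 9 genes there.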

Other observations

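Of the other marker lists, the 10 smooth muscle genes summed to 7808 to 8095 CPM in Ctrl, 7272 to 9529 CPM in Ctrl_Swim, 6227 to 9169 CPM in Model and 7205 to 8519 CPM in Model_Swim mice. The 8 plasma cell genes summed to 1364 to 1848 CPM in Ctrl and 1552 to 1982 CPM in Model mice, and 1 of them rose in Model vs Ctrl. The 10 liver genes summed to 37.5 to 188.1 CPM in Ctrl and 74.6 to 92.1 CPM in Model mice, with 1 higher and 1 lower of 9 tested. Of all tested genes, 16.5% rose and 16.2% fell in Model vs Ctrl.

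The FPKM ratio of Nos2 to the arginases, Arg1 and Arg2 summed, was 0.146, 0.0577 and 0.104 in Ctrl mice and 0.030, 0.0915 and 0.0841 in Ctrl_Swim mice. It was 0.493, 0.401 and 0.311 in Model mice and 0.451, 0.189 and 0.168 in Model_Swim mice. Every mouse with AOM/DSS was above every mouse without it, although Arg1 itself did not separate them.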
